A study of Homo sapiens with 18 samples.

Results

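The genes of mitosis described here were 53 of the 38716 gene symbols in the count tables, chosen by name for their role in mitotic entry, the spindle checkpoint, the kinetochore, the spindle and the condensin complex. They were followed in human fibroblasts of the IMR90 line, which derives from fetal lung, by mRNA-seq and by ribosome profiling (Ribo-seq), which sequences the stretches of mRNA that ribosomes protect from nuclease. Young cells were the proliferating low passage culture, and old cells were at high passage in replicative senescence. ICM cells were at low passage and had received inflachromene (ICM), a compound known to bind HMGB1 and HMGB2. The labels do not give the dose, and the study's text gives 6 days of treatment for its Ribo-seq. Each condition had 3 replicates in each assay, which made 18 libraries in 6 groups, and both libraries of a replicate came from 1 lysate. The design text of the series counts 4 young, 4 old and 2 ICM samples for these assays, which differs from the sample labels followed here, and the difference could not be settled. All conditions came from the same cell line and carried no transgene, so the line is the only genetic background tested.

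Mitosis is driven by cyclin-dependent kinase 1 with its A and B cyclins and by the Polo and Aurora kinases. Kinetochores, built on centromeres that carry the histone variant CENPA, bind spindle microtubules, and the spindle checkpoint holds back the anaphase-promoting complex until all chromosomes are attached. Condensin and topoisomerase II compact and untangle the chromosomes, and kinesins and the central spindle carry out their segregation and cytokinesis. Most of these genes are transcribed late in the cell cycle from promoters with a cell cycle genes homology region, the CHR, and CCAAT boxes. The DREAM repressor and the B-MYB and FOXM1 activators act through the CHR. Cells that leave the cycle are known to lose these mRNAs.

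Promoter windows of RefSeq (GRCh38.p14), from 250 bases before to 50 bases after the annotated start, were matched by symbol for 47 of the 53 genes. The letters TTTGAA, the canonical CHR, stood on either strand in the windows of 35 of these 47 genes (74.5%), against 18.2% of 27305 symbols with such a window. CCAAT stood on either strand in 36 of the 47 (76.6%), against 39.7% of all symbols, and both motifs stood in 27 (57.4%), against 7.26%. The CHR variant TTCGAA was found in 3 of the 47 (6.38%), against 1.82% of all symbols. The motifs overlapped in 2 windows. Between 40 and 11 bases before the start, TTTGAA lay in 15 of the 47 genes (31.9%), against 1.74% of all symbols. In the other 20 of the 35 genes it lay elsewhere in the window, and over all 35 its first base ran from -247 to 44. From these 15 genes, a stretch of 30 bases is shown for each functional group, that of the gene whose mRNA was lowest in ICM cells relative to young cells among them, so that the position near the start was fixed by the choice and only the letters around the motif are to be compared; TTTGAA is in capitals, and each is written 5′ to 3′ on the strand of the gene.
PLK1, chr16:23678849-23678878, plus strand: ccagcgccgcgTTTGAAttcggggaggagc
CDCA8, chr1:37692476-37692505, plus strand: agcctgtgactgtggagTTTGAAttgggtg
BUB1B, chr15:40161029-40161058, plus strand: cgcgcgggaccgttaaaTTTGAAacttggc
CENPA, chr2:26786016-26786045, plus strand: gtgaagtgggcggagcgagcgaTTTGAAcg
KIF4A, chrX:70290064-70290093, plus strand: gacggaTTTGAAacttggcggttaaagctc
HMMR, chr5:163460592-163460621, plus strand: aatgtggggagaTTTGAATTTGAAaccggt
MKI67, chr10:128126434-128126463, minus strand: cttcgttttcgTTTGAAttgggcgggcgcg
The motif began 29 bases before the start in PLK1 and MKI67, 23 bases before it in CDCA8 and BUB1B, 18 in CENPA and 34 in KIF4A, and HMMR held it in tandem from 28 and 22 bases before the start. A match is a description of letters and not a measured site. The windows of CCNB1, KIF20A and CKAP2 were among the 12 without TTTGAA on either strand, although KIF20A had the lowest mRNA level of all 53 genes in ICM cells relative to young cells. The median mRNA level in ICM cells was 3.16% of young for the 35 genes with the motif and 4.70% for the 12 without it, with ranges of 0.527% to 46.7% and 0.322% to 31.4%.

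**Figure D1:**
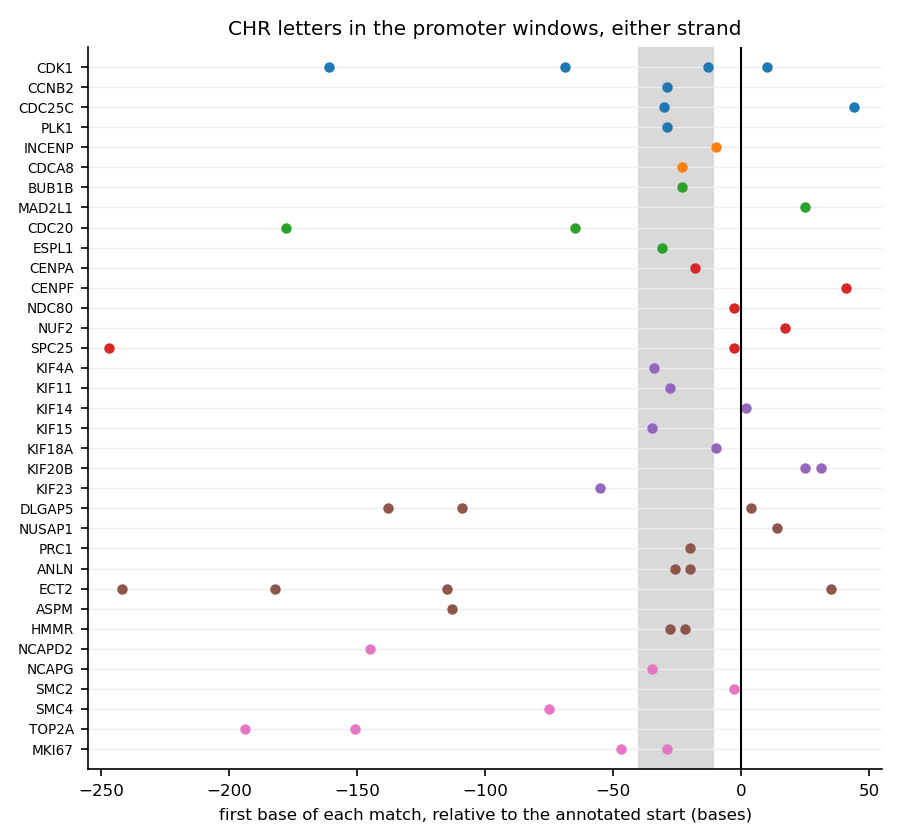
Position of each TTTGAA match, on either strand, in the RefSeq promoter windows of the 35 genes that hold one, in bases from the annotated start (line at 0); colours mark the functional groups, and the grey band spans 40 to 11 bases before the start. Of the 47 genes with a window, 15 have a match wholly inside the band.

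Sequencing depth was even for mRNA and uneven for footprints. The mRNA libraries held 7902427 to 14144455 reads in the coding genes' UTRs and CDS, the highest 1.79 times the lowest, whereas footprints in the CDS ran from 46239 to 1718521, a 37.2-fold range. The shallowest libraries were replicate 3 of ICM with 46239 CDS footprints, replicate 1 of young with 54421, replicate 2 of old with 54708 and replicate 2 of ICM with 78980. In replicate 2 of old and replicate 1 of young, only 15.0% and 34.4% of the reads counted were CDS footprints, against 54.7% to 88.8% elsewhere. Replicate 3 of ICM stood apart in the genes of mitosis, as given below, so the counts of footprint calls and the changes of the genes that differ without it are given both ways. The fibroblast markers COL1A1, COL1A2, COL3A1, DCN, LUM, VIM, THY1 and PDGFRB were all well above background in every condition, with mean mRNA levels from 71.0 CPM (reads scaled to a common library total) upward, while of 10 markers of other cell types the epithelial EPCAM and CDH1, the endothelial PECAM1 and CDH5 and the leukocyte PTPRC and CD3E had means under 1 CPM in every condition. The other 4 passed the filter, and in ICM against young cells the keratins KRT18 and KRT8 fell (log2 change -3.22 ± 0.08 and -0.91 ± 0.09) while VWF, from under 1 CPM to 3.11, 3.30 and 4.08 CPM, and the lysosomal CD68 rose (3.30 ± 0.38 and 1.51 ± 0.09). The 10 together summed to 324 to 345 CPM in young, 261 to 286 CPM in old and 109 to 116 CPM in ICM cells, and their part in the results was not tested.

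The first question was how much mRNA of these genes senescent and ICM-treated fibroblasts retained. The summed mRNA level of the 53 genes was 2953, 2886 and 2991 CPM in the young replicates, 767, 822 and 865 CPM in the old ones and 220, 213 and 226 CPM in the ICM ones. The groups lay far apart and the replicates close together, with means of 2943 ± 53.2 CPM, 818 ± 49.0 CPM and 220 ± 6.23 CPM (SD, n = 3 each). Old cells thus kept 27.8% of the young level and ICM cells 7.47%, a 13.4-fold reduction. In bulk samples a smaller share of cycling cells and less mRNA per cell cannot be told apart.

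**Figure D2:**
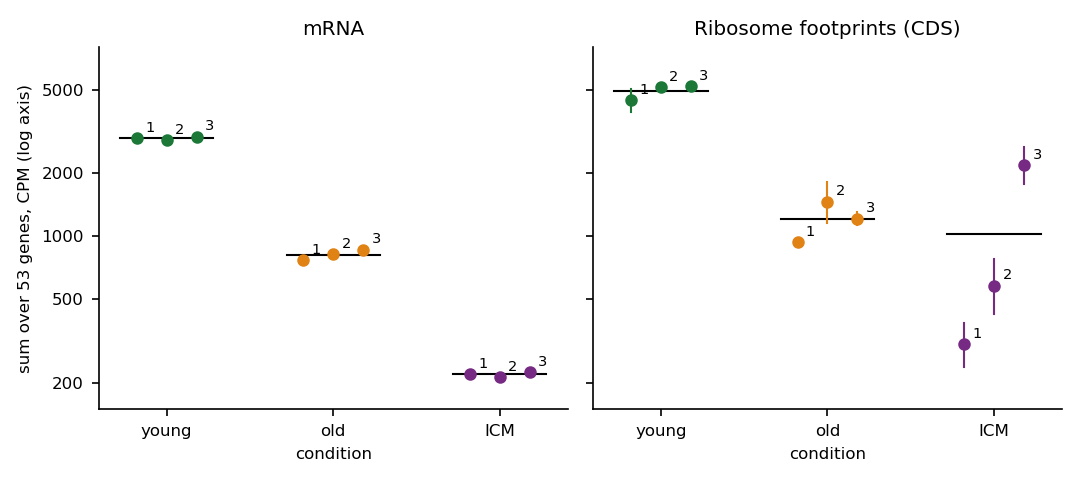
Summed level of the 53 genes in each library, as mRNA (left) and as CDS footprints (right), in CPM on a log axis. Points are replicates with their number and horizontal lines are means. Vertical lines on the right are 95% exact binomial intervals of the share of CDS reads, which cover counting error only. The mRNA sums form 3 tight groups, whereas the ICM footprint sums run from 307 to 2184 CPM, with replicate 3 above every old library.

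All 53 genes passed the filter on low mRNA counts and all 53 were called lower in ICM than in young cells at an adjusted p under 0.05 (edgeR's quasi-likelihood test, Benjamini-Hochberg over 13173 genes), where 36.1% of all genes tested were called lower. All 53 were also lower in old than in young cells, against 33.7% of all genes. Between ICM and old cells 52 were lower, against 32.6% of all genes, and KIF18A did not pass. The median log2 change of the 53 genes was -4.70 in ICM against young, -1.86 in old against young and -2.82 in ICM against old, while the medians over all genes were within 0.02 of 0. In 52 of the 53 genes the 9 libraries fell into 3 groups that did not overlap, with ICM lowest and young highest, an order seen in 8.34% of all genes. ICM against young and old against young share their young libraries, so these counts are not independent of each other. The level left in ICM cells was under 5% of young for 29 genes, between 5% and 20% for 20 and above 20% for 4, namely ECT2, SMC2, CKAP2 and INCENP. The median was 3.79% of young in ICM cells, with a range of 0.322% (KIF20A) to 46.7% (ECT2), and 26.1% in old cells, with a range of 14.6% (CENPF) to 58.5% (ECT2).

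**Figure D3:**
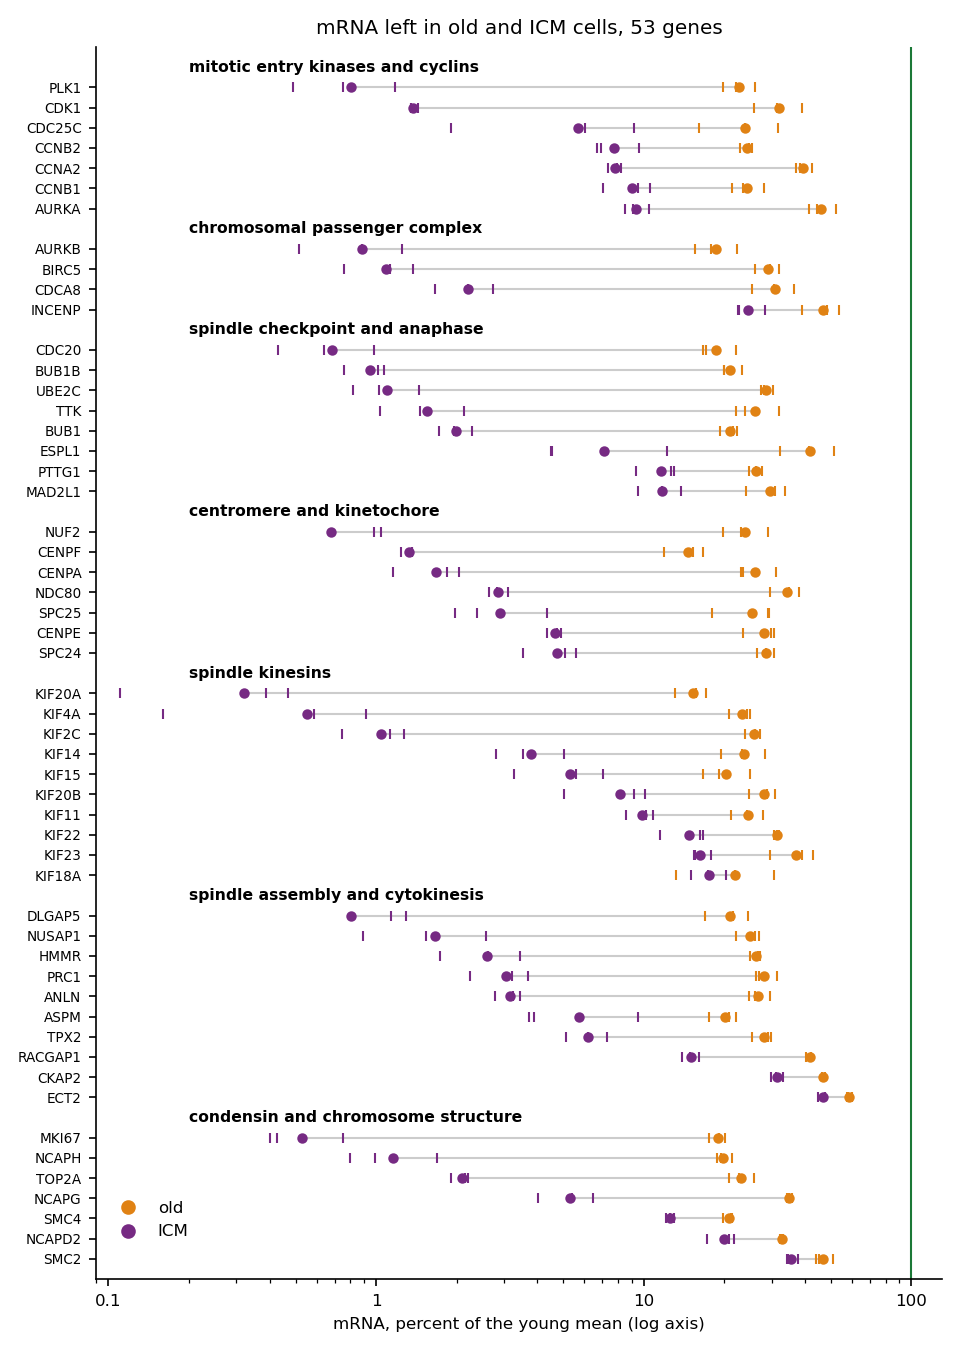
mRNA level of each of the 53 genes in old (orange) and ICM cells (purple), as a percentage of the mean of the 3 young libraries (green line at 100), on a log axis, by functional group; dots are means, ticks are the 3 replicates, and replicates at 0 are not drawn. In ICM cells the levels spread from 0.322% to 46.7% of young, more widely than the 14.6% to 58.5% of old cells, and KIF18A is the only gene whose old and ICM replicates overlap.

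Among the mitotic entry kinases and cyclins, all 7 genes fell in both comparisons with young cells, to 6.46% of their summed young level in ICM cells and 30.2% in old cells. CCNB1, the B-type cyclin that activates CDK1 at mitotic entry, had the highest mRNA level of the group, at 131, 112 and 121 CPM in young, 25.9, 34.2 and 28.5 CPM in old and 12.8, 11.6 and 8.51 CPM in ICM cells. Its ICM libraries lay below every old library, and the log2 change was -3.48 ± 0.11 (SE) in ICM (adjusted p = 1.9e-17) and -1.93 ± 0.10 in old cells (adjusted p = 1.4e-13). PLK1, the Polo-like kinase that acts in centrosome maturation and spindle assembly, fell most in ICM cells. Its levels were 75.8, 70.0 and 71.2 CPM in young, 15.9, 14.3 and 18.9 CPM in old and 0.545, 0.849 and 0.355 CPM in ICM cells, a log2 change of -6.97 ± 0.17 in ICM. AURKA, the Aurora kinase of spindle poles, fell least, from 68.2, 65.2 and 58.5 CPM in young to 26.5, 33.4 and 28.4 CPM in old and 5.45, 5.83 and 6.68 CPM in ICM cells. PLK1 and CDK1 were left at 0.806% and 1.38% of young in ICM cells, while CDC25C, the phosphatase that activates CDK1, and the cyclins CCNA2, CCNB1 and CCNB2 were left at 5.70% to 9.02%. In old cells the same genes held a narrower range, from 22.6% for PLK1 to 46.0% for AURKA.

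The chromosomal passenger complex consists of the kinase AURKB, its scaffold INCENP and the targeting subunits BIRC5 (survivin) and CDCA8 (borealin), which corrects faulty attachments at centromeres. Its subunits fell unequally in ICM cells. BIRC5, the most abundant in CPM, was at 94.0, 88.5 and 77.4 CPM in young, 25.6, 22.6 and 27.6 CPM in old and 1.19, 0.66 and 0.98 CPM in ICM cells. AURKB fell most, from 32.6, 30.1 and 27.7 CPM in young to 4.67, 5.37 and 6.73 CPM in old and 0.16, 0.38 and 0.27 CPM in ICM cells. INCENP kept 24.5% of its young level in ICM cells, at 7.39, 7.45 and 9.31 CPM against 29.9, 30.7 and 37.9 CPM in young and 15.8, 12.8 and 17.6 CPM in old cells. The log2 changes in ICM were -6.82 ± 0.22 for AURKB and -2.06 ± 0.13 for INCENP, a gap between the scaffold and the kinase larger than both errors. Per kilobase of coding length, young cells held 106 ± 13.8 RPKM (CPM of CDS reads per kilobase; SD, n = 3) of BIRC5, 38.3 ± 4.62 of AURKB, 32.0 ± 2.65 of CDCA8 and 12.7 ± 2.09 of INCENP. In ICM cells INCENP was highest at 3.26 ± 0.46 RPKM, followed by BIRC5 at 1.29 ± 0.47, CDCA8 at 0.851 ± 0.32 and AURKB at 0.321 ± 0.17 RPKM.

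The spindle checkpoint and anaphase genes comprised the checkpoint kinases BUB1 and TTK, the checkpoint proteins BUB1B and MAD2L1, the activator CDC20 and the conjugating enzyme UBE2C of the anaphase-promoting complex, securin (PTTG1) and separase (ESPL1). All 8 fell in both comparisons with young cells. CDC20 had both the highest young level and the largest fall in ICM cells, at 107, 106 and 97.0 CPM in young, 17.3, 17.6 and 22.8 CPM in old and 1.01, 0.660 and 0.443 CPM in ICM cells, a log2 change of -7.17 ± 0.16. PTTG1, which holds separase inactive until anaphase, fell least, from 49.2, 38.2 and 36.4 CPM in young to 10.8, 11.4 and 10.2 CPM in old and 5.33, 5.22 and 3.87 CPM in ICM cells. The group split into members left at 0.683% to 1.98% of young in ICM cells (CDC20, BUB1B, UBE2C, TTK and BUB1) and members left at 7.11% to 11.7% (ESPL1, PTTG1 and MAD2L1). In old cells ESPL1 kept 41.7% of young and the other members 18.6% to 29.5%.

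The centromere and kinetochore genes had the lowest summed level of the functional groups, at 2.37% of young in ICM cells and 22.4% in old cells. Their median log2 change in ICM against young was -5.13, less than that of the passenger complex (-6.01) and of the checkpoint and anaphase genes (-5.82). In old against young it was -1.87, less than for condensin and chromosome structure (-2.02), spindle kinesins (-1.96) and entry kinases and cyclins (-1.93). CENPF, a large protein of the outer kinetochore and the nuclear matrix, was at 81.7, 89.5 and 102 CPM in young, 10.9, 13.9 and 15.2 CPM in old and 1.25, 1.13 and 1.24 CPM in ICM cells, and it had the largest fall of all 53 genes in old cells (log2 change -2.67 ± 0.10). NUF2 fell most in ICM cells, from 17.5, 17.4 and 19.2 CPM in young and 3.55, 5.23 and 4.16 CPM in old to 0, 0.189 and 0.177 CPM in ICM cells. By reads over the whole mRNA SPC24 fell least, from 20.8, 17.9 and 17.2 CPM in young to 5.31, 4.94 and 5.71 CPM in old and 1.04, 0.660 and 0.946 CPM in ICM cells. This depended on the region counted, as SPC24 in ICM cells kept 1.91% of young in the CDS and 7.92% in the 3′ UTR. By CDS reads alone CENPE (4.59%) and NDC80 (3.05%) kept more than SPC24. NUF2, SPC24, NDC80 and SPC25 form the NDC80 complex, the rod that binds microtubules. Per coding length the subunits were close to each other in young cells, at 18.1 ± 0.48 RPKM for NDC80, 16.7 ± 1.65 for NUF2, 16.3 ± 1.85 for SPC25 and 24.8 ± 4.79 for SPC24, and in old cells they stood at 6.54 ± 0.77, 3.91 ± 1.07, 3.69 ± 0.78 and 7.03 ± 0.84. The motor CENPE was left at 4.66% of young in ICM cells and the histone variant CENPA at 1.68%.

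The 10 spindle kinesins all fell in both comparisons with young cells, and those left in ICM cells ranged from 0.322% to 17.5% of young. KIF20A, the kinesin that brings the passenger complex to the central spindle, had the highest young level and the largest fall of all 53 genes. It was at 84.0, 80.0 and 77.5 CPM in young, 10.6, 12.6 and 13.7 CPM in old and 0.311, 0.377 and 0.0887 CPM in ICM cells, a log2 change of -8.24 ± 0.18. KIF18A, which dampens chromosome movements at the metaphase plate, fell least, from 20.5, 21.9 and 24.6 CPM in young to 2.94, 4.88 and 6.82 CPM in old and 3.35, 3.87 and 4.52 CPM in ICM cells. The old and ICM libraries of KIF18A overlapped and the difference between them did not pass (log2 change -0.47 ± 0.22, adjusted p = 0.066). This value moved with the old library left out: without replicate 1, the lowest, it was -0.68 (adjusted p = 0.0050), and without replicate 3, the highest, -0.19 (adjusted p = 0.47). The chromokinesin KIF4A and the depolymerase KIF2C were left at 0.553% and 1.05% of young in ICM cells, KIF14, KIF15, KIF20B and the spindle motor KIF11 at 3.79% to 9.89%, and KIF22 and the central spindle kinesin KIF23 at 14.8% and 16.2%. In old cells all 10 lay between 15.3% and 37.1% of young.

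Spindle assembly and cytokinesis genes were reduced to 10.5% of their summed young level in ICM cells and 31.9% in old cells. ANLN, anillin, the scaffold of the contractile ring, had the highest level, at 154, 156 and 168 CPM in young, 39.5, 41.6 and 47.2 CPM in old and 5.53, 5.19 and 4.43 CPM in ICM cells. DLGAP5, a microtubule-stabilising protein of the spindle, fell most, from 46.8, 49.6 and 47.8 CPM in young and 8.12, 10.4 and 11.8 CPM in old to 0.545, 0 and 0.621 CPM in ICM cells. ECT2, the exchange factor that switches on RHOA at the cleavage furrow, fell least of all 53 genes, with 57.4, 59.0 and 68.9 CPM in young, 35.5, 37.1 and 35.7 CPM in old and 29.3, 29.4 and 27.7 CPM in ICM cells. Its 3 groups still did not overlap, and its log2 change was -1.13 ± 0.08 in ICM and -0.68 ± 0.08 in old cells. RACGAP1, which partners KIF23 in centralspindlin, and the microtubule protein CKAP2 were left at 15.0% and 31.4% of young in ICM cells. The spindle assembly factors TPX2, NUSAP1, HMMR and ASPM and the midzone bundler PRC1 were left at 1.67% to 6.19%. The ECT2 level depended on the part of the transcript counted. ECT2 reads in the CDS fell from 44.7 ± 2.63 CPM in young to 23.2 ± 1.04 in old and 11.9 ± 1.10 in ICM cells (26.6% of young), while reads in its 3′ UTR were 13.7 ± 3.80, 11.2 ± 1.51 and 15.5 ± 1.07 CPM (SD, n = 3), so that the 3′ UTR groups overlapped. By CDS reads alone the log2 change of ECT2 in ICM was -1.91 ± 0.09, and SMC2 rather than ECT2 kept the largest share of its young level, at 34.6%.

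Condensin I is built from the ATPases SMC2 and SMC4 and the subunits NCAPD2, NCAPG and NCAPH; it was listed together with topoisomerase II alpha (TOP2A) and MKI67, the Ki-67 protein that coats mitotic chromosomes. MKI67 had the highest young level of these and the largest fall in ICM cells, from 154, 157 and 154 CPM in young to 29.6, 27.2 and 31.2 CPM in old and 1.17, 0.660 and 0.621 CPM in ICM cells, a log2 change of -7.54 ± 0.13. SMC2 fell least, from 37.6, 38.2 and 41.6 CPM in young to 17.3, 17.7 and 19.95 CPM in old and 13.4, 13.6 and 14.7 CPM in ICM cells. Within the same complex NCAPH was left at 1.16% of young in ICM cells, NCAPG at 5.30%, SMC4 at 12.5%, NCAPD2 at 19.9% and SMC2 at 35.5%. The log2 changes of NCAPH and SMC2, -6.47 ± 0.20 and -1.52 ± 0.09, differed by more than both errors. Per coding length NCAPH and SMC2 began level in young cells, at 13.7 ± 0.91 and 13.6 ± 0.58 RPKM, and ended at 0.167 ± 0.08 and 4.82 ± 0.08 RPKM in ICM cells. In old cells the subunits lay between 19.8% (NCAPH) and 46.7% (SMC2) of young. NCAPG, like ECT2, depended on the region counted, with 1.80% of young left in the CDS of ICM cells and 60.2% in the 3′ UTR, where its reads were few at 2.97 ± 0.58 CPM in young and 1.79 ± 0.41 CPM in ICM cells. The whole 3′ UTR of NCAPG lies under exons of LCORL on the opposite strand (GENCODE annotation of GRCh37). Exons of another gene overlap the 3′ UTR of 8 of the 53 genes, and ECT2 is not among them. In SMC4 and RACGAP1 the overlap is also complete and on the opposite strand. ICM cells kept 11.6% and 15.1% of young in the CDS of these genes and 15.9% and 15.2% in the 3′ UTR. The part of the overlap in the NCAPG value was not tested. Over all 53 genes young cells had 80.8% of their mRNA reads in the CDS, old cells 78.8% and ICM cells 74.3%. Without ECT2 and NCAPG, chosen after their values were seen, these shares were 80.8%, 79.3% and 80.0%.

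Genes of the same machinery outside the 53 moved to different degrees. The lists were chosen with earlier results of these data known, and over all genes 36.1% were called lower and 34.9% higher in ICM against young cells. Of 24 other mitotic regulators and spindle proteins all fell in mRNA in ICM against young, with a median log2 change of -4.27, and all fell in old cells. Of 17 inner centromere genes 14 fell and 1 rose, with a median of -1.89. CENPT, a DNA-binding subunit of the inner kinetochore, was the one that rose (log2 change 0.42 ± 0.07), and CENPB and CENPP did not pass (-0.04 ± 0.07 and 0.05 ± 0.11). Of 17 other outer kinetochore and checkpoint genes 16 fell, with a median of -1.59, and NSL1, of the MIS12 complex, did not pass (-0.19 ± 0.09). The condensin II subunits NCAPG2, NCAPD3 and NCAPH2 all fell, by 2.92, 0.91 and 0.52 on the log2 scale. The anaphase-promoting complex itself is the ligase that CDC20 activates. Of 15 of its subunits and coactivators, 5 rose, 6 fell and 4 did not pass, near the shares over all genes. Their log2 changes ran from -0.71 to 0.66 with a median of -0.05, and ANAPC10, ANAPC5 and ANAPC16 rose by 0.66, 0.46 and 0.44. Of 13 other kinesins and light chains, listed for interphase transport, 6 rose and 3 fell, with a median of 0.11. Those that fell were KIF2A (-0.48 ± 0.07), KIF1B (-0.25 ± 0.08) and KIF5B (-0.20 ± 0.06). KIF2A is a depolymerase like KIF2C and no transport motor. For comparison, 6 of 8 fibroblast markers fell in ICM cells, with a median of -0.91, and DCN and LUM did not pass (0.15 ± 0.07 and -0.01 ± 0.08).

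The second question was whether ribosome footprints followed the mRNA. The summed footprints of the 53 genes were 4447, 5159 and 5204 CPM in the young replicates, resting on 242, 3534 and 8943 reads. In old cells they were 940, 1462 and 1216 CPM, resting on 1572, 80 and 710 reads. In ICM cells they were 307, 582 and 2184 CPM, resting on 69, 46 and 101 reads. Old cells thus held 24.4% of the young mean and ICM cells 20.8%, but the ICM mean was carried by replicate 3, which lay above every old library, and without it ICM cells held 9.0%. The footprint sum divided by the mRNA sum of the same lysate was 1.51 to 1.79 in young, 1.22 to 1.78 in old and 1.39, 2.73 and 9.67 in ICM cells, although the mRNA sum of ICM replicate 3 was like those of the other ICM libraries. Footprints of 35 of the 53 genes were found in ICM replicate 3, against 23 in each of the deeper ICM libraries. Of 41 genes with any footprint in ICM cells, 32 had their highest ICM value in replicate 3 and 9 had footprints there alone. The depth of that library moved with this pattern, and its part in it was not tested.

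**Figure D4:**
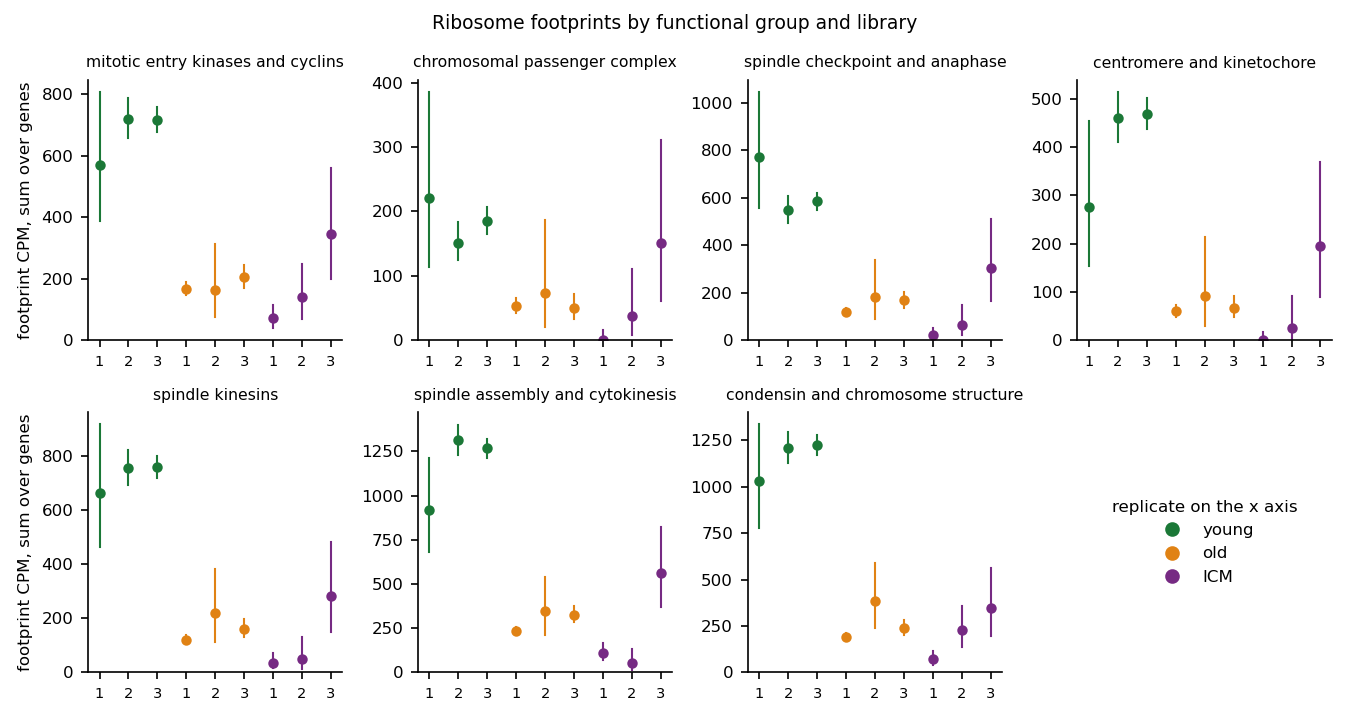
Footprint level summed over each functional group in each of the 9 Ribo-seq libraries, in CPM from 0, with 95% exact binomial intervals that cover counting error only. The x axis gives the replicate number, and colours the condition. Old libraries lie below young ones in every group, and ICM replicate 3 is the highest ICM library in every group.

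Only 35 of the 53 genes passed the filter on low footprint counts, and as young cells held most of the reads, a gene could pass through young cells alone; counts over these 35 are given as a description. Of them, 34 were called lower in ICM than in young cells, against 12.9% of all 4643 genes tested, and 35 were called lower in old than in young cells, against 17.0%. KIF18A did not pass in ICM against young (log2 change -2.01 ± 0.86, adjusted p = 0.081), and was called without ICM replicate 3 (adjusted p = 0.00056), where no footprint of it was left in ICM cells, so that no fold is given. Without that library 48 genes passed the filter and 46 were called lower in ICM than in young cells, against 13.8% of all genes, the others being KIF4A and NCAPH. Between ICM and old cells 1 gene was called lower, TOP2A, against 7.62% of all genes, and without ICM replicate 3 there were 7 of 48 tested, against 8.11% of all genes, namely AURKA, INCENP, PRC1, TOP2A, KIF20A, ANLN and CDK1. Of these, INCENP, PRC1, KIF20A and CDK1 had no footprint in ICM replicates 1 and 2. AURKA had none in replicate 2 and less than 1 estimated read, rounded down before the fit, in replicate 1. Their fitted changes are not bounds. DESeq2 called 22 of 35 lower in ICM and 21 in old cells than in young cells, against 7.30% and 5.04% of all genes. Without ICM replicate 1, the deepest ICM library, 22 of 46 genes tested were called lower in ICM than in young cells, against 6.70% of all genes. When all libraries were thinned to the depth of the shallowest, 2 genes passed the filter and both were called in each comparison with young cells. Over all genes 11.7% and 6.49% were then called lower in ICM and in old cells.

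TOP2A had the most footprints of all 53 genes, at 257, 446 and 448 CPM in young, 59.8, 183 and 75.4 CPM in old and 4.44, 38.0 and 64.9 CPM in ICM cells. Its young libraries lay above all others, and the log2 change was -4.36 ± 0.46 in ICM (adjusted p = 4.2e-09), -2.46 ± 0.25 in old cells (adjusted p = 1.2e-09) and -1.91 ± 0.61 in ICM against old cells (adjusted p = 0.030). Without ICM replicate 1 the last of these was -0.82 (adjusted p = 0.51), and without ICM replicate 3 it was -2.60 (adjusted p = 0.0031). ANLN had 184, 328 and 344 CPM in young, 48.4, 73.1 and 63.4 CPM in old and 17.8, 12.7 and 130 CPM in ICM cells. Its ICM replicate 3 lay above every old library while the other ICM libraries lay below them. CCNB1 had 165, 267 and 268 CPM in young, 50.2, 36.6 and 68.5 CPM in old and 35.5, 38.0 and 151 CPM in ICM cells. CDC20 had 312, 163 and 186 CPM in young, 25.1, 36.6 and 36.0 CPM in old and 0, 38.0 and 108 CPM in ICM cells. In both, ICM replicate 3 again exceeded every old library. CENPF had 110, 204 and 216 CPM in young, 13.2, 36.6 and 30.8 CPM in old and 0, 25.3 and 130 CPM in ICM cells. The log2 change in ICM against young was -3.32 ± 0.42 for ANLN, -2.30 ± 0.37 for CCNB1, -2.97 ± 0.54 for CDC20 and -3.10 ± 0.56 for CENPF, and without ICM replicate 3 it was -4.35 ± 0.47, -2.90 ± 0.40, -4.25 ± 0.59 and -4.97 ± 0.64. KIF20A had 147, 166 and 194 CPM in young, 14.3, 36.6 and 20.6 CPM in old and 0, 0 and 86.5 CPM in ICM cells, the latter from 4 reads. CDCA8 had 18.4, 48.2 and 45.4 CPM in young, 14.3, 36.6 and 12.0 CPM in old and 0, 38.0 and 21.6 CPM in ICM cells; with all libraries no gene of the passenger complex passed the filter. With 1 read worth 18.3 CPM in old replicate 2 and 21.6 CPM in ICM replicate 3, single values of these libraries are coarse.

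No ICM footprint was found for 12 genes: BUB1B, TTK, ESPL1, CENPA, CENPE, NUF2, SPC24, SPC25, KIF14, KIF15, DLGAP5 and HMMR. Against a limit of 3 reads over the 3 ICM libraries, DLGAP5 was at least 13.5-fold lower than in young cells, CENPE at least 13.1-fold and BUB1B at least 7.15-fold. For CENPA the limit allows no statement, as young cells had 9 footprints in all. The fitted changes of BUB1B, CENPE and DLGAP5, and of UBE2C, whose 0.5 estimated read in ICM cells was rounded to 0, rest on the prior count and are not bounds.

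In young cells the footprints per mRNA could be compared between genes. As a ratio of the CDS share of footprints to the CDS share of mRNA reads, in which the coding length cancels, the median of the 53 genes was 1.41, against 0.919 (interquartile range 0.593 to 1.29) over 9050 genes with at least 10 CPM of mRNA, and 45 of the 53 lay above that median. TOP2A, the kinetochore motor CENPE and SPC25 had the highest ratios with the libraries pooled, 2.26, 2.25 and 2.23. The replicates do not order them, at 1.37, 2.28 and 2.19 for TOP2A, 1.32, 2.23 and 2.02 for CENPE and 3.07, 2.19 and 2.50 for SPC25. CENPA had the lowest, 0.322, from 9 footprints, and the replicates read 0, 0.260 and 0.426. MKI67 was at 0.627, with 0.844, 0.834 and 0.529 in the replicates. CENPA mRNA was about as abundant per coding length as that of SPC24 (27.0 ± 4.48 and 24.8 ± 4.79 RPKM), while the pooled footprints were 8.72 and 44.1 RPKM. In old cells 39 genes were above 10 CPM of mRNA, and their median ratio was 0.941 against 0.873 over all such genes, with MKI67 lowest at 0.440 and MAD2L1 highest at 3.38.

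**Figure D5:**
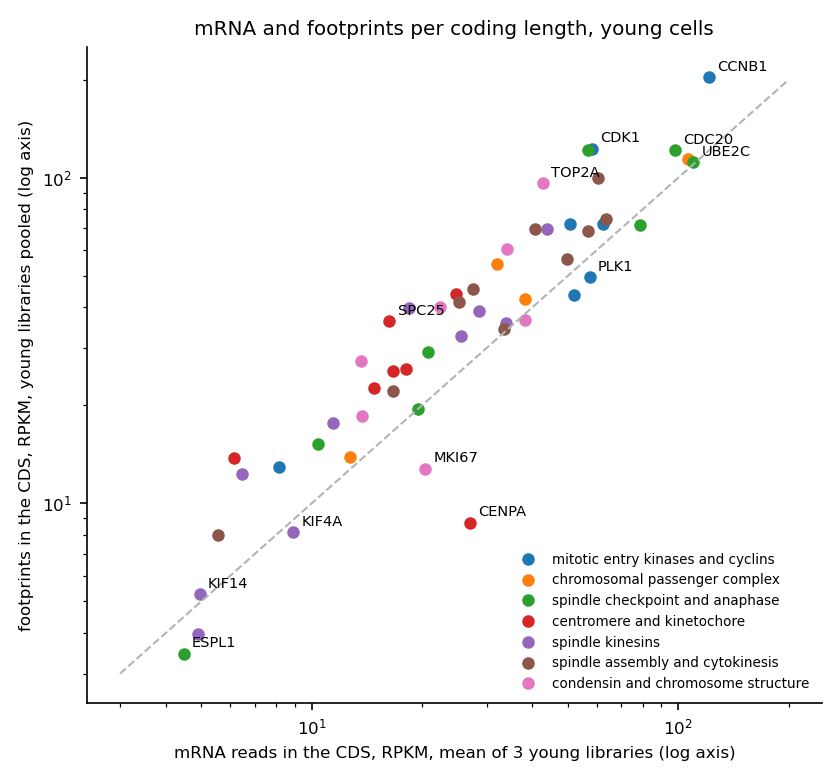
mRNA reads in the CDS (x axis, mean of 3 young libraries) and footprints in the CDS (y axis, young libraries pooled) of the 53 genes, both in RPKM on log axes; colours mark functional groups and the dashed line is equality. Most genes lie above the line, and CENPA, with 27.0 and 8.72 RPKM, and MKI67, with 20.4 and 12.8 RPKM, lie furthest below it.

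Translational efficiency, the change in footprints beyond the change in mRNA, was tested as an assay by condition interaction over all 18 libraries. In old against young cells none of the 35 genes tested was called by edgeR's quasi-likelihood test, against 1.45% of all 4618 genes called in either direction, and their log2 changes ran from -1.35 (KIF20B) to 1.04 (MAD2L1) with a median of -0.29. At an unadjusted p under 0.05 there were 7, against 605 of all 4618 genes, and DESeq2 also called 0, against 41 of all genes. In ICM against young cells 4 genes were called, all higher, against 2.45% of all genes. These were CDC20 (4.19 ± 1.08, adjusted p = 0.028), MKI67 (4.52 ± 1.18, adjusted p = 0.030), BUB1 (3.71 ± 1.04, adjusted p = 0.048) and CCNB2 (2.36 ± 0.67, adjusted p = 0.049). In ICM against old cells none was called, against 0.260% of all genes. At an unadjusted p under 0.05 there were 12, against 489 of all 4618 genes, and DESeq2 called 6, against 21 of all genes.

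The footprints behind these calls were few. BUB1 had 91.9, 93.4 and 96.0 footprint CPM in young, 13.2, 54.8 and 18.8 CPM in old and 0, 25.3 and 108 CPM in ICM cells, the last from 5 reads, while its ICM mRNA was 0.778, 1.04 and 0.887 CPM. MKI67 had 165, 166 and 107 footprint CPM in young, 14.3, 36.6 and 24.0 CPM in old and 8.89, 0 and 86.5 CPM in ICM cells. In BUB1, MKI67 and CDC20 the highest ICM value was that of replicate 3. CCNB2 differed in this, with 55.1, 96.3 and 83.2 footprint CPM in young, 20.9, 18.3 and 30.8 CPM in old and 26.7, 50.6 and 21.6 CPM in ICM cells, from 6, 4 and 1 reads. Without ICM replicate 3 none of the 4 passed. The log2 change was then 1.86 ± 1.51 for BUB1 (adjusted p = 0.58), 2.59 ± 1.32 for CDC20 (adjusted p = 0.32) and 2.80 ± 1.58 for MKI67 (adjusted p = 0.37), each smaller than with all libraries, while that of CCNB2 was 2.43 ± 0.73 (adjusted p = 0.051), about as large as before. The only gene called then, against 2.37% of all genes, was NCAPH (5.23 ± 1.31, adjusted p = 0.014), which did not pass the filter with all libraries, had 4, 1 and 0 footprints in the ICM replicates and was named after its values were seen.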

How the data were processed

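The deposited tables gave, for each library and gene symbol, estimated counts of reads in the 5′ UTR, CDS and 3′ UTR and in non-coding classes; these expected counts were unscaled, and 20.2% of values above 0 were not whole. Per the submitters' processing notes the authors used STAR 2.6.0c, featureCounts, DESeq2 and deepTools with GRCh37. The study's methods give cycloheximide lysates with footprints and poly(A) RNA from the same lysate, footprints counted in the CDS only, and 3 independent replicates. How reads were shared between isoforms and strands is not given in the sources used here.

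mRNA was the sum of 5′ UTR, CDS and 3′ UTR, and footprints were CDS reads. CPM were on library totals, and RPKM on GENCODE coding lengths. Counts were rounded and tested over all genes with edgeR 4.0.16 (quasi-likelihood test, TMM, filterByExpr, Benjamini-Hochberg, adjusted p under 0.05) in 1 fit of 9 libraries per assay. Translational efficiency was the assay by condition interaction over 18 libraries with the lysate as a block, in place of the study's own method; its pairing comes from the methods, and deviations of the 2 assays of a lysate correlated at -0.080 to 0.14. Standard errors (SE) are of log2 changes. The steps were tested on simulated data. Alternatives were RLE or library size scaling, DESeq2 1.42.0, other filters and thresholds, only the compared groups, a replicate block, CDS reads only, thinned footprints and leaving out libraries; the split of CDS and 3′ UTR reads was added after seeing the data.

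The genes and lists were chosen with earlier results of these data known. Values in every library were given, per functional group, for the gene highest in young cells and those with the largest and smallest fall of mRNA in ICM, for the gene with most footprints, and for genes called in translational efficiency. Outside the 53 genes, only genes that went against their list or did not pass were given values, up to 3 a list. Intervals and limits cover counting error only.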

Additional observations from a re-analysis of the deposited data

How the results depend on the processing

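In mRNA the counts of genes called held under all 16 alternatives, at 53 of 53 in ICM against young and old against young and at 50 to 53 in ICM against old. Leaving out 1 library gave 53, 53 and 52 to 53. Over all genes 19.8% to 39.8% were called lower in ICM against young. The share was 16.8% to 39.8% in old against young and 15.3% to 36.7% in ICM against old. KIF18A crossed the threshold in ICM against old with no filter (adjusted p = 0.024) and with a replicate block (0.035). A summed mRNA level with TMM factors moved in ICM cells from 220 to 212 CPM. In footprints, DESeq2 called 22 genes lower in ICM against young, 21 in old against young and 0 in ICM against old. Over all genes it called 7.30%, 5.04% and 4.01% lower. Thinning gave 2, 2 and 0 of 2 tested, against 11.7%, 6.49% and 8.27% of all genes. With only the compared groups 20 of 20 tested were called in ICM against young, against 13.6% of all genes. None of the 53 genes then passed the filter in ICM against old. At an adjusted p under 0.15, 4 were called in ICM against old, and 5 without the 3 shallowest libraries of their conditions. Over all genes 11.9% and 7.81% were then called lower. Leaving out 1 library gave 18 to 46 in ICM against young, 18 to 46 in old against young and 0 to 7 in ICM against old. The 18 in each comparison with young cells were of 20 tested, without young replicate 2. The lowest share in ICM against young came without ICM replicate 1, at 22 of 46 tested, against 6.70% of all genes called lower. In translational efficiency, ICM against young gave 7 at an adjusted p under 0.15, 2 with RLE, library size scaling or CDS reads only, 8 with DESeq2, 0 with only the compared groups, 1 thinned, 1 without the 3 shallowest libraries, and 0 to 8 without 1 library. Over all genes, calls in either direction were 318 of 4618 at 0.15, 98 with RLE, 96 with library size scaling and 92 with DESeq2. They were 97 of 4614 with CDS reads only and 40 of 3012 with only the compared groups. Thinning gave 22 of 1121, and leaving out the 3 shallowest libraries 164 of 7966. ICM against old gave 4 at an adjusted p under 0.15 or with a mean of at least 10 counts, 6 with DESeq2, 3 with no filter, 1 thinned, 1 without the 3 shallowest libraries and 0 to 6 without 1 library. Over all genes the calls were 61 of 4618 at 0.15, 34 of 6904 with the mean of 10 and 21 of 4618 with DESeq2. They were 39 of 13607 with no filter, 6 of 1121 thinned and 19 of 7966 without the 3 shallowest libraries. Old against young gave 4 with only the compared groups, against 266 of 7473 over all genes, and 0 to 0 without 1 library. The cause was not tested, except that thinning, dropping libraries and fitting fewer groups also changed which genes could be tested.

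Same-numbered samples of different conditions were treated as pairs only under the replicate block. Their deviations correlated at -0.055 to 0.10, about as weakly as those of the 2 assays of a lysate (-0.080 to 0.14). Such correlations cannot decide whether samples were paired. With the replicate block 26 genes were called in footprints in ICM against young and 25 in old against young, where 34 and 35 were called without it. Over all genes 8.40% and 5.92% were called lower with the block. Without the lysate block, translational efficiency gave 4 genes in ICM against young, 5 in old against young and 2 in ICM against old. Over all 4618 genes the calls were then 308, 462 and 53. Footprints rest on 46 to 101 reads of these genes in each ICM library, which limits the precision for single genes.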
